A study of Mus musculus with 2 samples.

Results

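The 10 genes described here encode mouse histones that are made outside S phase as well as within it. They are H2afz, H2afv, H2afx, H2afy and H2afj of the H2A class, H3f3a, H3f3b and Cenpa of the H3 class, and the linker histone genes H1f0 and H1fx. The genes were chosen by name and not by any measured value, though with earlier results of these data known. All 10 were found among the 43346 Ensembl gene rows of the deposited tables. Total RNA was sequenced from 2 cultures of G1E-ER4, an immortalized line of strain C57BL/6J per the labels, and numbered as biological replicates 1 and 2, both kept for 24 h in 17beta-estradiol at 10 nM. G1E-ER4 is an erythroid progenitor line in which the chromosomal Gata1 gene is inactive and an introduced GATA1 is fused to the ligand-binding domain of the oestrogen receptor, so that estradiol switches the factor on and differentiation begins. Both libraries therefore share the Gata1 deletion, the transgene and the treatment. With 1 group and no untreated library analysed here, levels, ratios within a library and the spread between the cultures can be given, and no effect of estradiol was tested.

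Most histone proteins are made only while DNA is copied, from clustered genes without introns whose mRNAs end in a stem-loop in place of a poly(A) tail. Variant histones come from genes outside those clusters, and their mRNAs usually carry a poly(A) tail. Several of them are placed in chromatin outside S phase by dedicated chaperones. In maturing erythroid cells, replacement H3 and H1 forms are of interest because divisions are about to stop while chromatin is being compacted. The libraries were depleted of ribosomal RNA and not selected for poly(A), so both kinds of histone mRNA could be measured.

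The libraries held 62080996 expected counts in replicate 1 and 41051158 in replicate 2, and 16115 and 19353 genes had counts. Over 12223 genes the counts differed by a chi-square of 75.8 per degree of freedom, so both were kept as separate samples. Of the erythroid markers, 12 of 12 reached 1 TPM (a share of the library's transcripts, scaled for length) in both libraries. That was so for 2 of 9 myeloid, 2 of 6 mast cell, 4 of 6 megakaryocyte, 0 of 5 lymphoid and 0 of 5 stromal or endothelial markers. Among all nuclear protein-coding genes, 36.3% reached it. Of the erythroid list, Gata1 was at 60.05 and 73.23 TPM. Its reads may come from the introduced gene, which was not tested. All 16 genes of a list for cycling cells were higher in replicate 2 than in replicate 1, with 5 of them past 2-fold. Their median difference was 0.92 on the log2 scale. Of the 9777 genes with a mean of at least 100 counts, 48.2% were higher in replicate 2 and 1.56% by 2-fold or more. In bulk RNA, more cells in a given phase and more RNA per cell cannot be told apart.

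Of the 10 variant genes, 8 were at 1 TPM or more in both replicates. Over the 21461 nuclear protein-coding genes that share was 36.3%. TPM is taken here over all transcripts of a total RNA library, not over mRNA alone. Rescaled over nuclear protein-coding genes, each level would be 7.09-fold higher in replicate 1 and 6.95-fold higher in replicate 2. Ratios within a library would not change. The levels spanned a wide range, led by H3f3a, H2afz and H3f3b. A middle group followed, formed by H2afx, Cenpa and H2afv, and then H2afj and H2afy. The linker genes H1f0 and H1fx were at or near 0. For each of the 8 genes, the mean log2 ratio to the next in this order was larger than its SD, except for H2afx over Cenpa, whose order differed between the libraries (−0.17 in replicate 1 and 0.77 in replicate 2). Cenpa over H2afv was close to this limit, at 0.29 in replicate 1 and 0.76 in replicate 2 with an SD of 0.33. Summed over coding transcripts only, Cenpa was below H2afv in replicate 1 (12.95 and 14.5 TPM) and above it in replicate 2 (17.7 and 14.8 TPM). By counts not divided by length, H2afj was above H2afv in both libraries (2509 and 1683 against 2316 and 1555). By the same measure H2afz and H3f3b were close, at 23708 and 23774 in replicate 1 and 20747 and 19104 in replicate 2.

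**Figure D1:**
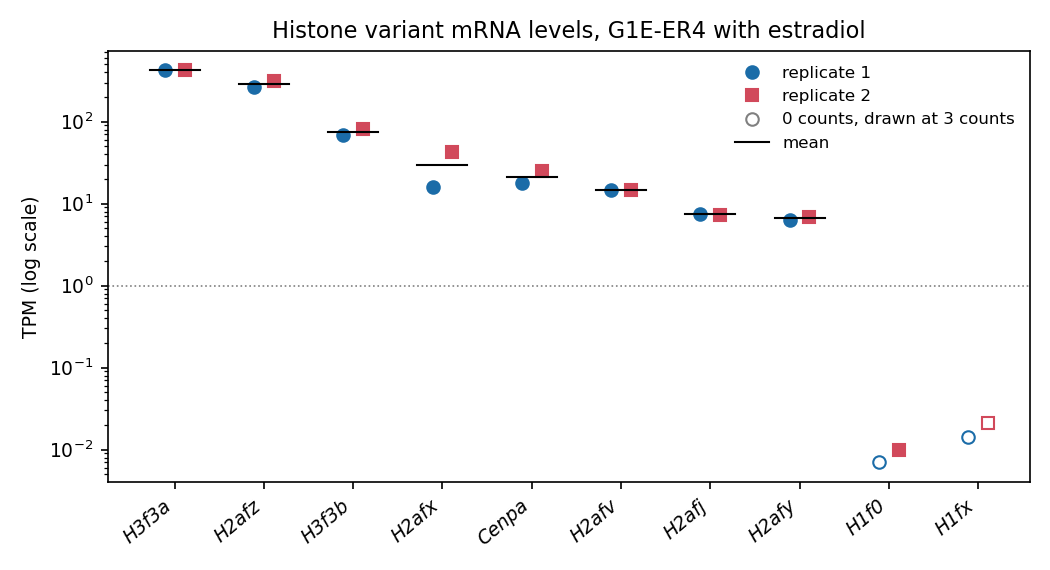
TPM (log axis) of the 10 variant genes in replicates 1 and 2 of estradiol-treated G1E-ER4, with the mean as a line for the 8 genes above 1 TPM (dotted). Open symbols are libraries with 0 counts, drawn at the TPM that 3 counts would give. H3f3a sits near 422 TPM in both libraries, the points of H2afx lie apart at 15.7 and 42.8 TPM, and H1f0 and H1fx lie far below the dotted line.

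H3f3a and H3f3b encode the same protein, H3.3, which takes the place of the S-phase H3 at active genes and, through another chaperone, at silent repeats. H3f3a (ENSMUSG00000060743.8, GRCm38 chromosome 1, 180800832 to 180813943, minus strand) was at 421 TPM in replicate 1 and 422 TPM in replicate 2, from 74370 and 48216 counts. The mean of 421.5 ± 1.26 TPM (SD, n = 2) was rank 31 among nuclear protein-coding genes. H3f3b (ENSMUSG00000016559.10, chromosome 11, 116021912 to 116027962, minus strand) was at 69.5 and 80.3 TPM, with 23774 and 19104 counts, a mean of 74.9 ± 7.62 TPM and rank 292. H3f3b was thus lower than H3f3a in both libraries, with a log2 ratio of −2.50 ± 0.14 (SD, n = 2), or 5.64-fold lower. Without division by length, the counts gave a log2 ratio of −1.49.

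The start of each coding sequence is shown because reads of these genes can be told apart by it although their protein is one. The first 60 coding bases are printed 5′ to 3′ from the GENCODE M21 transcripts (H3f3a at chr1:180811867-180811926 and H3f3b at chr11:116023950-116024009, both minus strand), and capitals mark bases that differ from the partner.
H3f3a-205: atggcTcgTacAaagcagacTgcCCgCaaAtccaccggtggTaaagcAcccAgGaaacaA
H3f3b-201: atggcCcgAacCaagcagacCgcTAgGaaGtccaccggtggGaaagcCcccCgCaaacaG
Of the 408 coding bases, 313 were identical (76.7%) and 0 of the 136 encoded amino acids differed. The longest identical run was 23 bases. H3f3a has many processed copies in the genome: 28 annotated processed pseudogenes share sequence with it (at least 20 exact stretches of 50 bases), of which 11 were in the tables. Together these 11 held 157 and 49.8 counts, few beside those of the gene. The 2 such copies of H3f3b held 42.0 and 25.7 counts. On the opposite strand, Gm17275 overlaps H3f3a and held 4157 and 2391 counts, and H3f3aos held 320 and 187. The use of strand in the counting is not given in the sources used here, so the split between H3f3a and these neighbours is uncertain.

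Cenpa encodes CENP-A, the H3 variant that marks the centromere and is loaded after mitosis by its own chaperone, HJURP. Cenpa (ENSMUSG00000029177.5, chromosome 5, 30666777 to 30674830, plus strand) was at 17.7 TPM in replicate 1 and 25.04 TPM in replicate 2, from 3925 and 3797 counts. Its mean was 21.4 ± 5.16 TPM, rank 1327, with replicate 2 above replicate 1. The H3.3 genes together exceeded Cenpa 27.6-fold in replicate 1 and 20.1-fold in replicate 2, a log2 ratio of 4.56 ± 0.33.

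H2afz and H2afv encode the H2A.Z proteins, which flank the start sites of active genes. H2afz (ENSMUSG00000037894.9, chromosome 3, 137864487 to 137866922, plus strand) was at 261 and 317 TPM in replicates 1 and 2, with 23708 and 20747 counts. The mean of 289 ± 39.5 TPM was rank 50. H2afv (ENSMUSG00000041126.12, chromosome 11, 6427229 to 6444443, minus strand) was at 14.5 and 14.8 TPM, from 2316 and 1555 counts, with a mean of 14.7 ± 0.191 TPM and rank 1976. H2afz was the higher gene by 18.0-fold in replicate 1 and 21.4-fold in replicate 2, a log2 ratio of 4.30 ± 0.18. The ratio was smaller by other measures, at 3.07 ± 0.30 on coding transcripts only and 3.55 ± 0.27 on counts not divided by length. H2afz formed 94.7% of the H2A.Z TPM in replicate 1 and 95.5% in replicate 2.

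The first 60 coding bases of both H2A.Z genes, again with capitals where the partner differs, show how alike they are. Each run crosses a junction between exons (H2afz between chr3:137864694-137865189, plus strand, and H2afv between chr11:6439397-6444339, minus strand).
H2afz-201: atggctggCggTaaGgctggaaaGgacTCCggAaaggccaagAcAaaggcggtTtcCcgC
H2afv-202: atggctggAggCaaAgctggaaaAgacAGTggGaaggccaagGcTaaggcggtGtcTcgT
Over the full coding sequences, 304 of 384 bases were identical (79.2%), and 3 of 128 amino acids differed. The longest identical run was 14 bases. Processed copies bore on H2afz more than on H2afv. The 2 copies of H2afz in the tables held 2652 and 2748 counts, and the posterior SD of the H2afz count was 54.9 and 55.8. For H2afv no processed copy was found and the posterior SD was 0 in both libraries.

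H2afx encodes H2AX, whose tail is phosphorylated around broken DNA. Its gene is single-exon and known to give both a short mRNA with the histone stem-loop and a longer one with a poly(A) tail. H2afx (ENSMUSG00000049932.3, chromosome 9, 44334694 to 44336077, plus strand) was at 15.7 TPM in replicate 1 and 42.8 TPM in replicate 2. It was the only one of the 8 expressed variants with more counts in the shallower library, 3814 in replicate 1 and 7092 in replicate 2. The mean of 29.3 ± 19.1 TPM was rank 924.

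Among the 10 variants, the histone stem-loop motif (GGNNC, then TTTTN, then AGNNCC, with N for any base) was found in H2afx alone. The search covered the sense strand of all M21 transcripts of protein-coding genes, and no other motif was searched. The motif was present in 78 of 21924 protein-coding genes (0.356%) and in 41 of 61 replication-dependent histone genes (67.2%). The stem-loops are shown for H2afx and for 1 highly expressed gene of each S-phase class, 5′ to 3′ as DNA letters, with the motif in capitals and 5 bases on each side.
H2afx (chr9:44335235-44335260, plus): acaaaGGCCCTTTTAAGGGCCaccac
Hist2h2aa1 (H2A): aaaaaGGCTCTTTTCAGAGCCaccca
Hist1h2bk (H2B): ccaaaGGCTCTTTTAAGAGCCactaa
Hist1h3b (H3): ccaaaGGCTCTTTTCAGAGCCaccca
Hist1h4d (H4): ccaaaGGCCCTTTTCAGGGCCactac
Hist1h1d (H1): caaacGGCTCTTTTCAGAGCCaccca
In the annotated H2afx transcript of 1384 bases the motif begins at base 547, and 822 bases follow it. The annotation holds 1 transcript, so the tables do not separate the short and the long mRNA. A missing match says only that these letters are not in the annotated transcript.

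H2afj encodes a protein known from human cells to build up in senescence. H2afy encodes macroH2A1, with its large folded domain behind the histone part. On TPM they were the lowest of the expressed genes. H2afj (ENSMUSG00000060032.5, chromosome 6, 136808244 to 136810074, plus strand) was at 7.53 and 7.36 TPM, from 2509 and 1683 counts, with a mean of 7.45 ± 0.120 TPM and rank 3490. H2afy (ENSMUSG00000015937.10, chromosome 13, 56073619 to 56136361, minus strand) was at 6.35 and 6.85 TPM, from 1755 and 1211 counts, with a mean of 6.60 ± 0.354 TPM and rank 3828. H2afx was above H2afj 2.09-fold in replicate 1 and 5.82-fold in replicate 2 (log2 ratio 1.80 ± 1.04), with H2afj nearly equal in both libraries. H2afz exceeded H2afx 16.6-fold and 7.41-fold (3.47 ± 0.82) and H2afy 41.2-fold and 46.3-fold (5.45 ± 0.12). On counts not divided by length these log2 ratios were 2.09 and 3.93, and on coding transcripts only 2.25 and 5.28. The second macroH2A gene, H2afy2, had 0 counts in both libraries, so H2afy was at least 857-fold higher in replicate 1 and at least 635-fold higher in replicate 2, against a floor of 3 counts per library. Stretches of 50 bases of H2afx are shared with 16 replication-dependent histone genes and stretches of H2afj with 14. The posterior SD of the count was nevertheless 1.29 and 1.24 for H2afx, and 0 for H2afj.

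macroH2A1 is made in alternative forms that differ by 1 exon; one form binds ADP-ribose in its macro domain and the other does not. The exons are shown because reads on them decide which form is counted. Exon bases are in capitals, with 12 bases of the shared exons on each side in lower case (H2afy-201, the macroH2A1.2 form, exon at chr13:56089758-56089857; H2afy-202, the macroH2A1.1 form, exon at chr13:56088252-56088342; minus strand).
H2afy-201: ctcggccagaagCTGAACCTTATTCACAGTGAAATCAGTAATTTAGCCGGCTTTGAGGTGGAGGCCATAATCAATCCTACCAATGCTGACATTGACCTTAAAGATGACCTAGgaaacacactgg
H2afy-202: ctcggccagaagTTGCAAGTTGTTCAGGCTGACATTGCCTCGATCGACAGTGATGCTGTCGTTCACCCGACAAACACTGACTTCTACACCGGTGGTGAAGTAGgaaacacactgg
The form without ADP-ribose binding carried nearly all counts of the pair. H2afy-202, the ADP-ribose-binding form, held 24.4 and 6.19 expected counts in replicates 1 and 2, against 1262 and 760 for H2afy-201. Its share of both was 1.90% in replicate 1 and 0.808% in replicate 2, and such low expected counts depend on how the program divided reads.

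The linker variants were at the floor. H1f0 encodes H1.0, the linker histone that builds up in many cells as they leave the cell cycle, and H1fx encodes H1.10. H1f0 (ENSMUSG00000096210.1, chromosome 15, 79028450 to 79030504, plus strand) had 0 counts in replicate 1 and 4 in replicate 2, where it was listed at 0.01 TPM. H1fx (ENSMUSG00000044927.6, chromosome 6, 87980421 to 87981637, minus strand) had 0 counts in both. A count of 3 would correspond to 0.00701 and 0.0102 TPM for H1f0 and to 0.0144 and 0.0211 TPM for H1fx in replicates 1 and 2. In the same libraries Hist1h1c, the replication-dependent gene for H1.2, was at 50.7 and 74.1 TPM. H1f0 was at least 7228-fold lower than Hist1h1c in replicate 1, and 5452-fold lower in replicate 2 with a 95% Poisson interval of 2129 to 20010 for counting error. Both genes have rows in the authors' annotation, and whether reads of their mRNAs could be assigned to those rows was not tested, so these folds hold for the deposited counts. Replicate 2 had counts for more genes than replicate 1 (19353 against 16115) although it was the shallower library. The source of the 4 H1f0 counts there was not tested. No ratio was formed between H1f0 and H1fx, since at least 1 of them was at 0 in each library. Gm5577, which overlaps H1fx on the opposite strand, held 12 and 0 counts.

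Against the replication-dependent histones of the same class, the variants held different shares. Summed TPM is used, since reads of near-identical cluster genes may be split among them. The 5 H2A variants summed to 306 TPM in replicate 1, against 939 TPM for the replication-dependent H2A genes, and to 389 TPM against 2168 TPM in replicate 2. They were lower in both libraries (log2 ratio −2.05 ± 0.61), at 24.6% and 15.2% of both groups together. The ratio was −1.11 ± 0.45 on counts not divided by length and −3.02 ± 0.48 on coding transcripts only. The H3.3 genes summed to 490 TPM, against 205.2 TPM for the replication-dependent H3 genes, in replicate 1, and to 503 TPM against 513 TPM in replicate 2. H3.3 mRNA was therefore 70.5% of H3 mRNA in one culture and 49.5% in the other, and the ratio (log2 0.61 ± 0.91) was not larger than its spread. On counts not divided by length it was 1.90 ± 0.92 and was called. For H1, the replication-dependent genes summed to 345 and 682 TPM and the variants to 0 and 0.01 TPM. The variant sums moved little between the libraries and the S-phase sums moved much, as the plot by class shows.

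**Figure D2:**
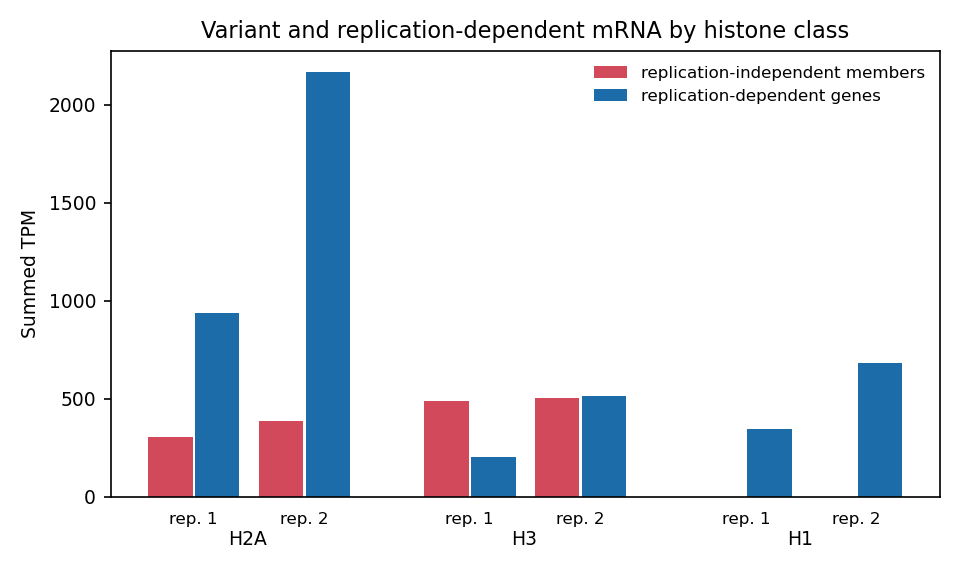
Summed TPM (linear axis from 0) of the replication-independent variants (red) and of the replication-dependent genes (blue) of the H2A, H3 and H1 classes in each replicate; CENP-A is not in the H3 bars. The H3.3 bars are 490 and 503 TPM, while the replication-dependent H3 bars are 205.2 and 513 TPM. The H1 variant bars are too low to be seen.

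Of the 15 within-library pairs compared, 14 had a ratio and 12 were called, meaning the same sign in both libraries and a mean larger than the SD. Without the 3 pairs that rest on the floor, 9 of 11 were called. The share of other gene pairs that would meet this rule was not measured. Genes of unlike level meet it readily, so the count is not a result about the variants. The H3.3 genes exceeded the H2A.Z genes 1.78-fold in replicate 1 and 1.51-fold in replicate 2 (log2 0.71 ± 0.16). This ratio was 1.81 ± 0.26 on coding transcripts only and 1.75 ± 0.23 on counts not divided by length. With processed pseudogene counts added to the genes it was lower, at 0.56 ± 0.18. Among the chaperones, Hira, of the complex that places H3.3 at genes, was at 3.12 and 4.04 TPM, and Daxx, which works with Atrx at repeats, was at 4.32 and 3.19 TPM. Their order differed between the cultures (log2 −0.06 ± 0.57), so they were not separated on TPM. Hira was the lower gene by the same rule on counts not divided by length (−0.20 ± 0.13) and on coding transcripts only (−1.35 ± 0.30). Srcap, the motor of a complex that inserts H2A.Z, was at 1.90 and 2.52 TPM, below Ep400, the motor of another such complex, at 6.35 and 5.64 TPM (log2 −1.45 ± 0.41).

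Between the cultures, H2afx stood apart from the other variants. On the scale of TMM-normalised CPM (counts scaled to the library total), H2afx was at 62.1 CPM in replicate 1 and 171 CPM in replicate 2, a log2 difference of 1.46 (2.75-fold). It was the 1 variant of the 8 with enough counts (a mean of at least 100) to differ 2-fold. Of all 9777 genes with enough counts, 2.05% differed 2-fold in either direction and 1.56% did so with replicate 2 higher, and 29 genes had a higher ratio than H2afx. With 1 library on each side no p-value can be given.

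With replicate 1 higher, 0 variants differed 2-fold, against 0.481% of all genes. The other 7 variants differed by less than 1.5-fold, a difference that 7.84% of all genes reached in either direction and 5.0% with replicate 2 higher. Cenpa was 1.43-fold higher in replicate 2 (log2 0.52), H2afz 1.30-fold (0.37) and H3f3b 1.19-fold (0.25). H2afy (0.03), H2afv (−0.01), H2afj (−0.01) and H3f3a (−0.06) were near 0. On the scale of TPM, H3f3a (0.01) and H2afv (0.03) had the other sign. The authors' credible bounds of TPM, which cover assignment and counting within a library, did not overlap between the replicates for H2afx, H2afz, H3f3b and Cenpa and overlapped for the other 4. Over all 9777 genes the bounds did not overlap for 46.3%, so 4 of 8 is near that background. Of the 8 variants, 5 were higher in replicate 2 by any amount, against 48.2% of all genes. Their median was 0.14, or 0.030 without H2afx, where the median of all genes was −0.01.

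**Figure D3:**
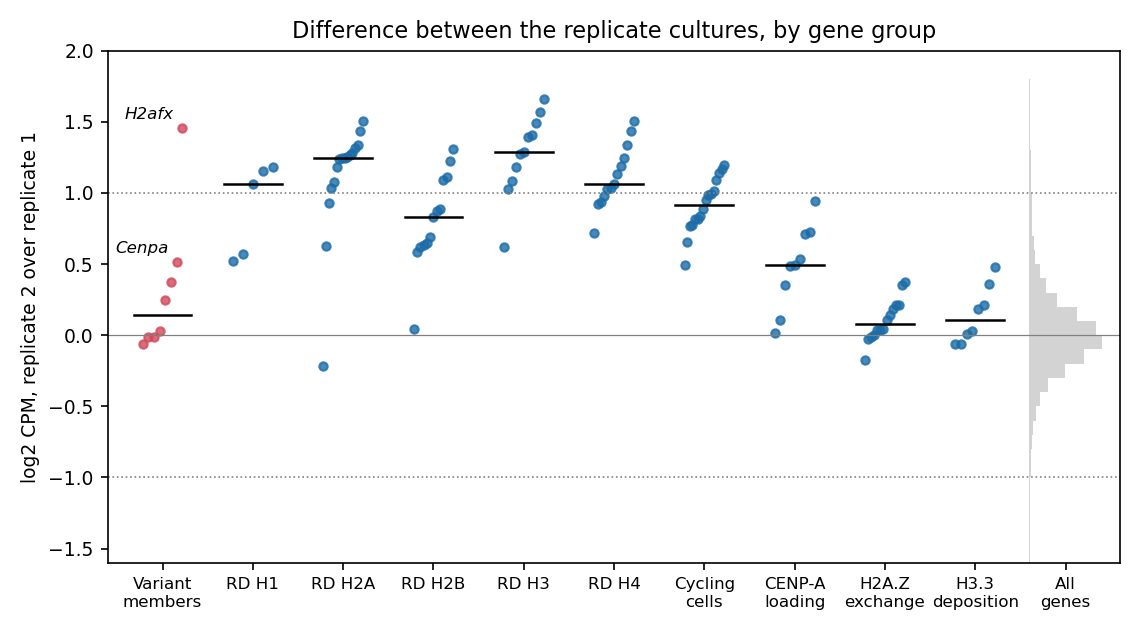
Log2 ratio of TMM-normalised CPM, replicate 2 over replicate 1, for genes with a mean of at least 100 counts; points are genes, bars are medians, RD is replication-dependent, dotted lines mark 2-fold and the grey histogram holds all 9777 genes. Among the variants H2afx lies at 1.46, within the range of the replication-dependent H2A and H3 genes, and the other 7 lie between −0.06 and 0.52.

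The replication-dependent histones were nearly all higher in replicate 2. Of 58 with enough counts, 57 were higher by any amount and 39 by 2-fold or more, against 48.2% and 1.56% of all genes. The median of the 58 was 1.12 and their range was −0.21 to 1.66. Their medians by class were 1.25 for H2A, 1.29 for H3, 1.07 for H4, 1.06 for H1 and 0.83 for H2B. H2afx was higher than 53 of these 58 genes in this ratio and lower than 5. Hist1h3b, for example, was at 40.8 and 109 TPM, and Hist2h2aa1 at 209 and 503 TPM. The difference of H2afx thus came with higher S-phase histone and cycling-cell RNA in the same culture, and their part in it was not tested.

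The same ratio was set side by side for genes with and without the stem-loop motif. The 16 other protein-coding genes with the motif, neither replication-dependent histones nor H2afx, had a median of 0.05. Of these, 0 reached 2-fold, against 2.05% of all genes. Replication-dependent histones with the motif (38 genes, median 1.12) and without it in the annotated transcript (20 genes, median 1.12) had the same median to 2 decimals. The 7 variants without the motif had a median of 0.03. The match was sought anywhere in a transcript, so it does not show that an mRNA ends in a stem-loop. A missing match does not show the reverse. These medians therefore cannot tell the effect of a stem-loop, and its part in the H2afx difference was not tested.

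The proteins that place and read the variants were expressed too. All 8 genes for H3.3 deposition reached 1 TPM in both libraries, led by Dek at 38.8 and 52.7 TPM, Atrx at 26.3 and 26.5 TPM and Ubn1, a HIRA partner, at 9.86 and 9.71 TPM. Their median difference between the cultures was 0.11, with 0 of 8 past 2-fold. All 14 genes for H2A.Z exchange reached 1 TPM, led by Vps72, a subunit that binds H2A.Z, at 26.7 and 31.2 TPM, Anp32e, which removes H2A.Z, at 24.0 and 24.4 TPM, and Yeats4 at 12.9 and 13.1 TPM. Their median was 0.08, and again 0 of 14 were past 2-fold. For these lists and those below, the shares over all genes were 36.3% at 1 TPM and 2.05% past 2-fold.

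The 9 genes for CENP-A loading and the inner centromere were higher in the same culture as Cenpa. All 9 reached 1 TPM in both libraries and all 9 were higher in replicate 2, by a median of 0.49, with 0 past 2-fold. The shares over all genes were 36.3% at 1 TPM, 48.2% higher in replicate 2 and 1.56% higher there by 2-fold. Hjurp was at 7.88 and 15.2 TPM (log2 0.94), Oip5, of the loading complex, at 4.49 and 6.18 TPM (0.49), and Cenpn at 3.40 and 5.53 TPM (0.73). Cenpc1, which binds CENP-A nucleosomes, was at 4.84 and 5.10 TPM (0.11). Since the cycling-cell genes were also higher in replicate 2, their part in these values was not tested.

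Of 10 genes that act on H2AX phosphorylation or in the response to it, 9 reached 1 TPM in both libraries. The median difference of the 10 was 0.14, with 0 past 2-fold. Ppp4c, a subunit of a phosphatase that acts on H2AX, was at 14.6 and 15.9 TPM, Baz1b at 11.0 and 14.2 TPM, and the ubiquitin ligases Rnf168 and Rnf8 at 5.17 and 5.74 TPM and at 4.42 and 3.64 TPM. Mdc1, the reader of phosphorylated H2AX, was at 0.49 and 1.03 TPM. The H2AX gene itself thus differed more between the cultures than each of the 10, whose largest log2 difference was 0.53.

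The list of replication-coupled and general histone chaperones included the most abundant mRNA of these lists, Npm1. All 11 reached 1 TPM, among them Npm1 at 174 and 147 TPM, Supt16, of the FACT complex, at 35.6 and 38.2 TPM, and Set at 23.8 and 33.3 TPM. Over the 11 genes of both kinds the median difference was 0.45, with a range of −0.21 to 0.97. Of the 9 measured genes for replication-dependent histone mRNA, 7 reached 1 TPM. Slbp, which binds the stem-loop, was at 31.3 and 34.5 TPM (0.19), and Cpsf2, of the cleavage machinery, at 23.8 and 26.6 TPM (0.19). Lsm11 (0.20 and 0.32 TPM) and Zfp473 (0.16 and 0.39 TPM) were under 1 TPM.

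Other variant genes were mostly at 0. Of 15 further variant genes, 11 had 0 counts in both libraries and 1 reached 1 TPM in both, Hist3h2a, at 13.1 and 19.9 TPM. Hist3h2ba was at 0.35 and 2.23 TPM. Both lie in a histone cluster and hold the stem-loop motif, and both are also counted among the 61 replication-dependent genes above, Hist3h2a with the H2A class and Hist3h2ba with H2B. H3f3c held 39.7 counts in replicate 1 and 0 in replicate 2. It is annotated as a processed pseudogene, and these counts are also among those of the 11 H3f3a copies above. Hist1h1t, the linker histone of the testis, held 8 and 6 counts.

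At the level of transcripts, the leading form depended on the measure for H2afz and H2afv. H2afz-204, a transcript of 349 bases annotated as a target of nonsense-mediated decay, held 58.4% and 53.4% of the gene's TPM, but only 19.6% and 15.5% of its counts. The coding transcript H2afz-201 held 39.7% and 44.0% of TPM, and 77.9% and 81.3% of counts. Because TPM divides by length, a short transcript weighs more in it. Summed over coding transcripts only, H2afz was at 105 and 144 TPM (124.8 ± 27.6), less than the full gene value and still above H3f3b at 62.0 and 73.1 TPM by the same sum.

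H2afv-201, of 519 bases, held 58.7% and 60.6% of TPM against 41.4% and 39.4% for H2afv-202, of 1633 bases. By counts the longer form led, with 76.1% and 75.4%. H3f3a-201 held 89.6% and 91.8% of TPM, while H3f3a-205, of 2841 bases with a long last exon, held 9.09% and 6.91% of TPM and 27.8% and 22.6% of counts. H3f3b-201 held 89.1% and 90.7% of TPM. Single transcripts are annotated for H2afx, H2afj, H1f0 and H1fx.

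H2afy and Cenpa also held transcripts not annotated as protein coding. H2afy-201 held 52.5% and 42.7% of TPM, and the processed transcript H2afy-204 held 34.4% and 46.0%, so their order differed between the cultures. By counts, H2afy-201 led in both, with 71.9% and 62.8%. Cenpa-205 held 72.0% and 70.5% of TPM and Cenpa-202, annotated for nonsense-mediated decay, 18.9% and 20.8%. Retained-intron transcripts formed 11.0% ± 1.51 of the TPM of H2afy, 6.07% ± 1.14 of Cenpa, 1.27% ± 0.0919 of H3f3a and 1.10% ± 0.0778 of H2afz (SD, n = 2 each).

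**Figure D4:**
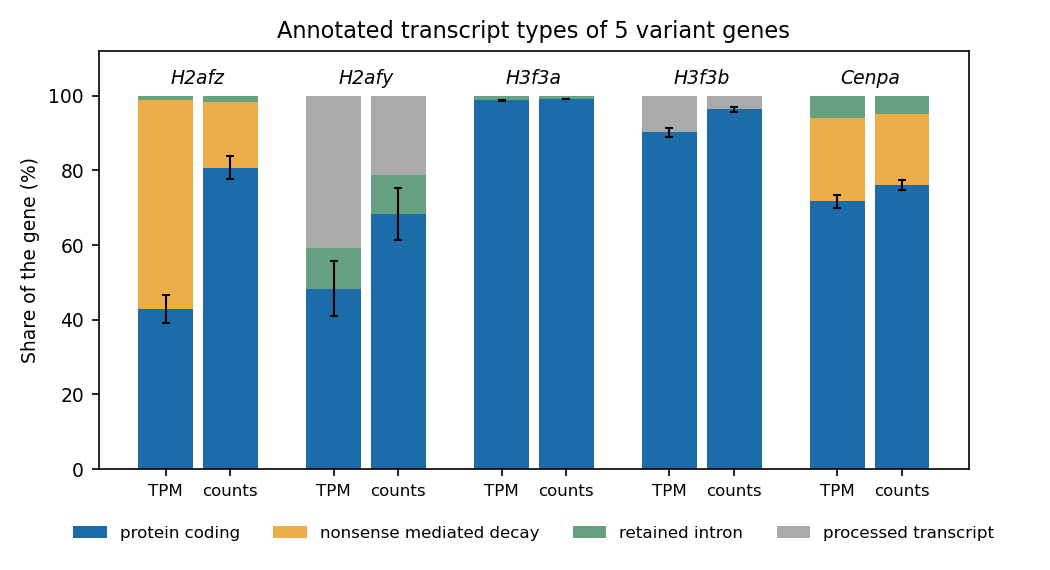
Mean share (%) of each gene's TPM and of its counts by annotated transcript type for 5 variant genes; error bars are the SD of the protein-coding share over 2 replicates. For H2afz the protein-coding share is 42.9% of TPM and 80.7% of counts, while for H3f3a it is 98.7% and 99.1%.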

How the data were processed

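Gene and transcript counts are expected counts as the authors deposited them, per the file headers. TPM, FPKM, credible bounds and the posterior SD of the count stand beside them, per the file headers; their level is not given in the sources used here. Transcript tables deposited by the authors add the percent of the gene's TPM that each transcript takes. Text lists deposited beside the tables name mm10 as the assembly and GENCODE M4 as the annotation. For program, aligner and use of strand, the answer is not given in the sources used here. Gene symbols, coordinates and transcript sequences came from GENCODE M21 on the same assembly (GRCm38); 42462 of 43346 Ensembl rows matched by identifier without version.

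Levels are deposited TPM; values under 0.1 TPM were recomputed for ratios from count and effective length. A value of 0 or at most 3 counts was set to a floor of 3 counts in ratios. A pair was called where both libraries gave the log2 TPM ratio one sign and its mean exceeded the SD; a two-sided exact sign-flip test cannot go below 0.5 here, so no p is given. Replicate differences used CPM scaled by the TMM method (edgeR 4.0.16, R 4.3.3), from expected counts after rounding to integers, with 0.5 as the prior count, for genes with a mean of at least 100 counts. As an alternative, size factors of DESeq2 1.42.0 were used. The remaining steps ran in Python 3.11 (pandas 2.3.3, numpy 2.4.6, scipy 1.17.1). The count step was tested on simulated data. Intervals and floors cover counting error only, since the labels report no molecular identifiers and reads may repeat a molecule. The labels call the replicates biological and do not say how the cultures were kept apart, so the SD covers the spread between these samples only.

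The members and gene lists were chosen with earlier results of these data known. Named genes are all 10 variants, of each list up to 4 with the highest TPM and up to 2 under 1 TPM, the 2 highest replication-dependent genes per class, the genes of the pairs, and transcripts with at least 10% of a gene's TPM. Gata1, the factor altered in this line, and genes that overlap a variant were named outside this rule. Hist1h1d, shown for its stem-loop, and the shares of H2afy-202 and H3f3a-205, which are under 10%, were chosen after their values were seen.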

Additional observations from a re-analysis of the deposited data

How the results depend on the processing

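No paired analysis was possible because there is 1 group only. The number of variants at 1 TPM in both replicates was 8 under posterior mean TPM, FPKM, TPM rescaled over nuclear protein-coding genes, thresholds of 5 and 0.1 TPM, and with either replicate left out. The number of pairs called was 12 with posterior mean TPM, a pseudocount of 1 TPM or processed pseudogenes added, 13 with coding transcripts only (a setting chosen after seeing the data) and 14 on counts not divided by length, where the H3.3 genes exceeded the replication-dependent H3 genes by a log2 ratio of 1.90 ± 0.92. Hira over Daxx was called in both of these settings, at −1.35 on coding transcripts and −0.20 on counts. Mean log2 ratios that rest on the floor moved as well: H2afy over H2afy2 was 9.53, 8.92 on counts and 8.47 on coding transcripts, and H1f0 over Hist1h1c was −12.62 and, on counts, −11.99. Differences of 2-fold between the cultures were 1 (H2afx) with DESeq2 size factors, TPM, posterior mean counts and a 1.5-fold threshold, and 2 with no filter on low counts, the second being H1f0 at 0 and 4 counts. The median difference of the variants was 0.030 without H2afx, also chosen after seeing the data. The median share of the leading transcript was 65.5% of TPM, 70.6% of counts and 65.2% by posterior mean percentage, and 65.3% to 65.6% with 1 replicate left out. Among the pairs, no ratio called on TPM changed direction. The order of levels was not rerun by this rule on counts not divided by length, where H2afj was above H2afv in both libraries. Depth limits H1f0 and H1fx, besides the untested assignment of their reads, since counts cannot show levels under the floor of 3, and the macroH2A1.1 form; only 2 libraries limit every SD.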
